A study of Mus musculus with 6 samples.

Results

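Cyp11a1, the mitochondrial cytochrome P450 that cuts the side chain of cholesterol to give pregnenolone, was examined in mouse leukaemia cells together with 8 genes that act beside it in steroid synthesis. The 9 genes were Cyp11a1, Star, Fdx1, Fdxr, Tspo, Stard3, Hsd3b1, Hsd3b6 and Cyp17a1, taken by symbol from a table of 23608 rows, and every one of them had a row. They were chosen with the oil and tamoxifen values of Cyp11a1 in these same 6 libraries already known. Their differences between the groups are therefore given as a description, with an error and no p-value. Calls among them are only counted, beside the share over all genes, and nothing is read from those counts. Outside the gene set, genes were tested in 1 fit over the whole table.

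Steroid hormones are all made from cholesterol, and delivery of cholesterol to the inner mitochondrial membrane is the step that limits their synthesis in the adrenal gland and gonads. There the side-chain cleavage enzyme receives electrons from ferredoxin reductase through ferredoxin, and the pregnenolone it makes leaves the mitochondrion to be converted by 3beta-hydroxysteroid dehydrogenases and by CYP17A1. Cyp11a1 is best known from steroid-making glands and the placenta, and transcripts have also been described in mast cells and in activated helper T cells.

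The cells were AE9a leukaemia cells, which carry a truncated AML1-ETO fusion protein and GFP from a retrovirus introduced into fetal liver cells, and which were passed into irradiated C57BL/6 recipients. All of them, control cells included, carried 1 floxed Usp18 allele and the UBCER-Cre transgene, a Cre recombinase expressed in all tissues and activated by tamoxifen. Once the recipients were sick they were injected with oil (genotype Usp18+/f) or with tamoxifen in corn oil (labelled heterozygous depletion, Usp18+/D), and GFP+ Lin- c-Kit+ splenocytes were sorted 3 days after the first injection from 3 mice per group. The labels give neither age nor sex for the mice, and mark these libraries as batch 2. The study's methods name animals of both sexes and give the age of its mice as a range in weeks. Oil-treated mice received no tamoxifen, so the drug and the loss of the allele cannot be told apart.

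The 6 libraries held between 17118964.0 and 20741399.0 estimated counts, and levels are given in CPM, which sets each library to a common total after TMM scaling. A count of 3, taken as the floor of detection, corresponded to 0.145 to 0.177 CPM. Usp18, the targeted gene and a protease that removes ISG15 from proteins, was 9.12, 10.95 and 11.2 CPM in oil 1, 3 and 4, and 15.1, 28.0 and 19.4 CPM in tamoxifen 1, 2 and 4. It was thus higher, not lower, in every library labelled tamoxifen (log2 fold change 0.998, SE 0.23, edgeR adjusted p = 0.0739). For that reason the groups are called by their labels, and each direction below is that of libraries labelled tamoxifen relative to libraries labelled oil. Tamoxifen 4 stood apart, since its profile correlated on average at 0.983 with the oil libraries and at 0.972 with the other tamoxifen libraries, whereas the oil libraries correlated among themselves at 0.991 on average. Calls given for named genes and pathway lists are also given without it where they change. Usp18 itself was called without it (log2 fold change 1.04, edgeR adjusted p = 0.00654).

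Cyp11a1 lies on chromosome 9 (mm10, GENCODE M21 positions 58006411 to 58027023, plus strand, ENSMUSG00000032323). The RefSeq table gives 2 starts that lie 16928 bases apart. The stretches below, from RefSeq on GRCm38.p6, are shown because this gene carried the main difference and its gene-level counts do not tell which start was used. In the first, capitals mark CGTCA, the reverse complement of TGACG, which is the core of a cAMP response element, and the stretch is the 250 bases before the upstream start (chr9:57997774-57998023, plus strand). In the second, capitals mark AGGTCA, the core letters bound by Nr5a1 and related nuclear receptors, within 30 bases (chr9:58014912-58014941, plus strand) ahead of the downstream start.
Cyp11a1 upstream start: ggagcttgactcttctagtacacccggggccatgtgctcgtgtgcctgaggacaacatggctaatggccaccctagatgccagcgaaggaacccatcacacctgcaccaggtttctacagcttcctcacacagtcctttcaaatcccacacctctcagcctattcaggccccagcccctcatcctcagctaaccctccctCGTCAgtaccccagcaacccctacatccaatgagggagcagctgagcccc
Cyp11a1 downstream start: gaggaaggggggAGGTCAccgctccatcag

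By GENCODE the downstream stretch lies after the start of the long coding transcript (positions 58014671 to 58027023), in its 5′ untranslated region, so the annotations place this start differently. Windows of 250 bases before to 50 bases after a RefSeq start, available for 6 of the 9 genes, were searched on both strands for the nuclear receptor letters AGGTCA, for the GATA letters AGATAA or AGATAG, for the cAMP response letters TGACG, for the TATA box core TATAA and for the core of an interferon-stimulated response element, a choice made after the expression values were seen. The downstream Cyp11a1 window also held AGATAG, a form of the GATA letters, and overlapping TATAA matches on both strands. GATA letters in the form AGATAA occurred in the Hsd3b1 and Hsd3b6 windows and TATAA in that of Fdx1, none of the searched letters was found for Fdxr or Stard3, and the interferon-stimulated response element core was in none of these windows. Such letters are common: of 32851 RefSeq windows, 16.3% held AGGTCA, 11.2% held AGATAA and 8.95% held AGATAG. In the same windows TGACG occurred in 20.8%, TATAA in 24.9% and the interferon-stimulated response element core in 3.44%.

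Cyp11a1 was far more abundant in the libraries labelled tamoxifen. Oil 1, 3 and 4 held 616, 1071 and 973.5 estimated counts of it, whereas tamoxifen 1, 2 and 4 held 19344.5, 21657.5 and 8893.5. On the CPM scale these were 34.7, 51.9 and 50.1 for oil and 1062, 1279 and 491 for tamoxifen. The lowest library labelled tamoxifen was well above the highest oil library, and the spread within the tamoxifen group came mostly from tamoxifen 4. Group means were 45.6 ± 9.47 and 944 ± 407 CPM (SD, n = 3 each), and the fitted log2 fold change was 4.37 (SE 0.37), a 20.7-fold difference. Relative to the oil mean, the single tamoxifen libraries were 23.3-fold, 28.1-fold and 10.8-fold higher, so tamoxifen 4 shared the direction at the smallest size. Without tamoxifen 4 the log2 fold change was 4.68.

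The transcript was of middling abundance in oil and among the most abundant in the libraries labelled tamoxifen. It made up 0.00345% to 0.00516% of all counts in the oil libraries and 0.0493% to 0.127% in those labelled tamoxifen. Ordered by CPM among 11614 tested genes, Cyp11a1 ranked between 4871 and 6142 in oil, in the middle of the list. In tamoxifen 1, 2 and 4 it ranked 52, 39 and 255.

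**Figure D1:**
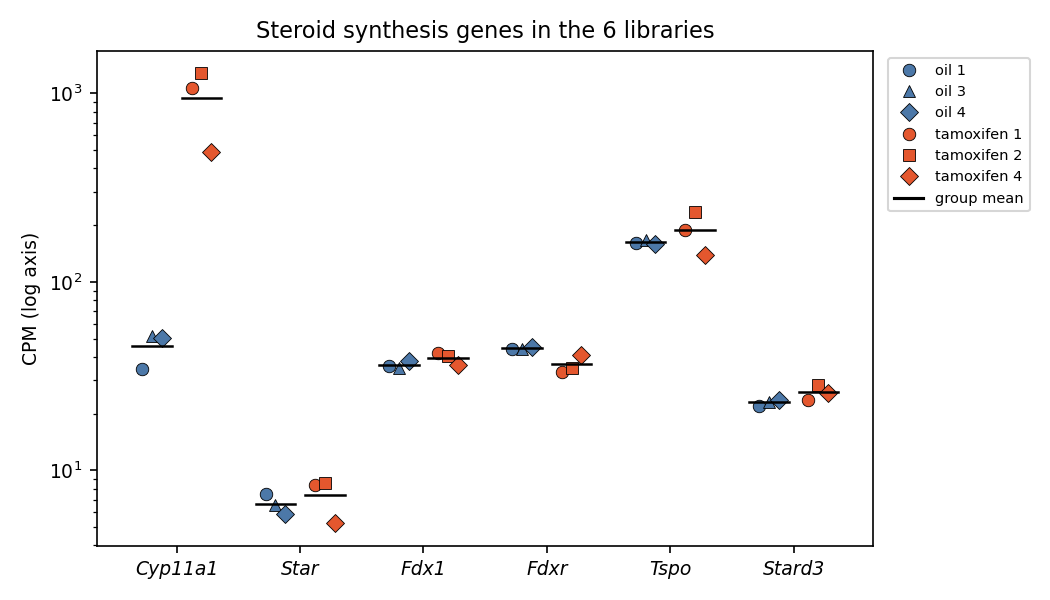
CPM (log axis) of the 6 tested steroid synthesis genes in each of the 6 libraries, oil in blue and tamoxifen in red, with the group mean as a black line. Cyp11a1 goes from 34.7 to 51.9 CPM in oil to 491 to 1279 CPM in tamoxifen, while the other 5 genes differ far less between the groups.

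The genes that bring cholesterol to the mitochondrion showed no difference of that size. Star, the acute regulator that moves cholesterol across the mitochondrial membranes, lies on chromosome 8 (25806555 to 25815982, plus strand) and was 7.46, 6.52 and 5.87 CPM in oil and 8.37, 8.56 and 5.25 CPM in tamoxifen 1, 2 and 4. The groups overlapped, with tamoxifen 4 the lowest of all 6 libraries, and the means were 6.61 ± 0.80 and 7.39 ± 1.86 CPM (log2 fold change 0.16, SE 0.23). Stard3, a late endosomal protein with a lipid-binding domain like that of Star, lies on chromosome 11 (98358368 to 98381112, plus strand) and was 21.9, 23.2 and 23.7 CPM in oil against 23.8, 28.2 and 25.7 CPM in tamoxifen. Its groups did not overlap, though oil 4 and tamoxifen 1 were nearly equal, and its log2 fold change was 0.17 (SE 0.11).

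Tspo, an outer mitochondrial membrane protein that binds cholesterol and whose part in steroid synthesis is debated, lies on chromosome 15 (83563592 to 83574203, plus strand). It was the most abundant of the 9 genes in oil, at 161, 166.6 and 159.7 CPM, and measured 188.5, 236 and 139.6 CPM in tamoxifen 1, 2 and 4. Tamoxifen 1 and 2 were above the oil libraries and tamoxifen 4 was below them, so the groups overlapped (162 ± 3.65 and 188 ± 48.2 CPM, log2 fold change 0.21, SE 0.17). Without tamoxifen 4 the difference was 0.39.

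The electron supply of the enzyme was present in every library and moved little. Fdx1, the mitochondrial ferredoxin, lies on chromosome 9 (51943306 to 51963556, minus strand) and was 35.6, 35.0 and 38.0 CPM in oil and 41.8, 40.5 and 36.0 CPM in tamoxifen, with overlapping groups (log2 fold change 0.12, SE 0.10). Fdxr, the flavoprotein that reduces it, lies on chromosome 11 (115268024 to 115277050, minus strand) and was 44.1, 44.3 and 44.9 CPM in oil against 33.3, 35.1 and 41.2 CPM in tamoxifen. Of the 6 tested genes of the set, Fdxr was the 1 with a negative difference, all 3 tamoxifen libraries being below all 3 oil libraries (44.4 ± 0.43 and 36.5 ± 4.11 CPM, log2 fold change -0.28, SE 0.11). Cyp11a1 and its reductase therefore differed in opposite directions, by unequal amounts.

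The enzymes that would act on pregnenolone were at or close to 0. Hsd3b1 and Hsd3b6, 3beta-hydroxysteroid dehydrogenases on chromosome 3 (98852194 to 98859794 and 98805504 to 98814443, both minus strand), had 0 counts in all 6 libraries, so each was under the floor of 0.145 to 0.177 CPM. They belong to a family of near-identical neighbours whose reads the authors' counting could have split or dropped. Cyp17a1, the 17alpha-hydroxylase and lyase on chromosome 19 (46667165 to 46673172, minus strand), had 2, 6 and 0.5 counts in oil and 10.5, 4 and 2 counts in tamoxifen, too few to be tested. The floor covers counting error only, since amplified reads that carry no molecular identifier are not separate molecules. In bulk libraries, fewer cells of a type and less RNA per cell cannot be told apart.

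In counts over the gene set, 6 of the 9 genes passed the filter on low counts and 3 did not. Of the 6, Cyp11a1 alone was called at an adjusted p under 0.05, where 2.01% of all tested genes were called, 1.75% higher and 0.267% lower. The groups did not overlap for 3 of the 6 (Cyp11a1 and Stard3 higher, Fdxr lower), against 25.0% of all tested genes. Without tamoxifen 4, Cyp11a1 and Tspo were called higher and Fdxr lower, in a fit that called 19.2% of genes higher and 17.1% lower. As the genes were chosen on this contrast, nothing is read from these counts.

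Levels were compared between genes as CPM per kilobase, using the median length of each gene's coding transcripts in GENCODE. In the oil libraries Tspo was highest at 194 ± 4.36 CPM per kilobase, followed by Fdxr (22.8 ± 0.22), Cyp11a1 (21.5 ± 4.47), Fdx1 (19.9 ± 0.88), Stard3 (11.1 ± 0.44) and Star (1.63 ± 0.20). Cyp11a1 could not be ordered against Fdxr or Fdx1 in oil, because its 3 libraries spanned 16.4 to 24.5 CPM per kilobase. Among libraries labelled tamoxifen, Cyp11a1 came to the top at 445 ± 192 CPM per kilobase, above Tspo at 225 ± 57.6, and was above Tspo within each of the 3 libraries.

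**Figure D2:**
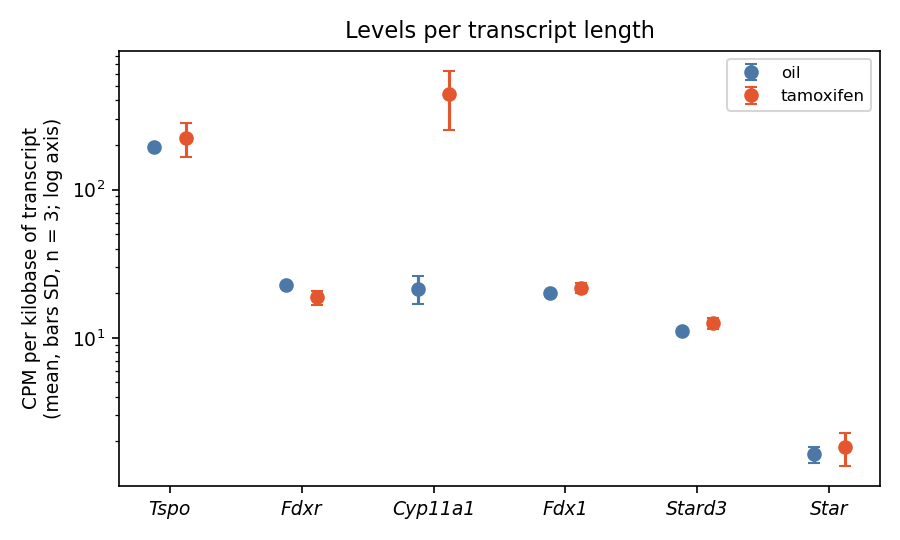
CPM per kilobase of transcript (log axis) for 6 genes, ordered by their oil mean; points are group means and bars the SD over 3 libraries. Cyp11a1 is level with Fdxr and Fdx1 in oil at 21.5 and above Tspo in tamoxifen at 445, with the widest bar.

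Transcript ratios of Cyp11a1 to its partners were also taken within each library. Per kilobase, Cyp11a1 stood at 0.835 to 1.27 times the level of Fdx1 in oil and at 11.7 to 27.0 times in tamoxifen. Against Fdxr the ratio was 0.722 to 1.08 in oil and 10.97 to 33.5 in tamoxifen. Against Star it went from 8.87 to 16.3 in oil to 179 to 285 in tamoxifen. These ratios do not depend on scaling between libraries. As Cyp11a1 is the numerator in each and its partners differed little, they restate the Cyp11a1 difference and are no further result. Fdx1 has coding transcripts of different lengths, and with its longest transcript its oil level was 13.1 ± 0.58 CPM per kilobase, which placed it below Fdxr and below the mean of Cyp11a1.

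Next, genes with a pattern over the 6 libraries like that of Cyp11a1 were listed by Pearson correlation of log2 CPM, among 9673 genes with a mean of at least 5 CPM. The libraries share their group, and 509 genes had a correlation over 0.9 and 414 one under -0.9, so these values are a description. Closest was Akr1c13, a member of the aldo-keto reductase family that holds hydroxysteroid dehydrogenases (r = 0.997). It was 10.5 ± 0.12 CPM in oil and 31.9 ± 5.28 CPM in tamoxifen (log2 fold change 1.60, SE 0.15, edgeR adjusted p = 0.00705), and reads of this family may be shared between near-identical members. Akr1c13 was picked for its likeness to Cyp11a1 over these same libraries, so its adjusted p follows in part from that choice. It was no longer called when oil 1 or oil 4 was left out, where its adjusted p reached 0.0994. Zfp523, Dgkd, Pglyrp2 and 2010315B03Rik followed at 0.994 to 0.995, and Dyrk1a, Mier3 and Garem1 were the most opposed, at -0.9996, -0.998 and -0.994. The correlation does not measure size: Dyrk1a was 127.5 CPM in oil and 117.8 CPM in tamoxifen, a log2 fold change of only -0.11. Within the steroid synthesis set, the correlation with Cyp11a1 was 0.767 for Stard3, 0.743 for Fdx1, 0.542 for Tspo, 0.398 for Star and -0.916 for Fdxr.

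To see whether the difference extended along the chromosome, the 3 nearest coding genes on either side of Cyp11a1 were read. On the side before it, Sema7a had 0 counts in every library, and Ubl7 (edgeR adjusted p = 0.230) and Arid3b (edgeR adjusted p = 0.359) were not called, at log2 fold changes of 0.24 and 0.35. Without tamoxifen 4 both were called, at 0.31 (edgeR adjusted p = 0.0157) and 0.53 (edgeR adjusted p = 0.0210). On the side after it, Islr had 0 counts and Stra6 no more than 3 in any library, while Ccdc33 rose. Ccdc33, a coiled-coil gene on the minus strand (GENCODE 58028677 to 58118823) whose annotation begins 1654 bases after the end of Cyp11a1, had 7, 10.5 and 5 counts in oil and 97, 88 and 41.5 counts in tamoxifen 1, 2 and 4. Its level went from 0.387 ± 0.126 to 4.27 ± 1.71 CPM (log2 fold change 3.47, SE 0.45, edgeR adjusted p = 0.0257).

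Ccdc33 and Cyp11a1 point toward each other, and the strand setting of the counting is not stated, so reads that run past the end of Cyp11a1 cannot be told apart from Ccdc33 reads. Counts of Ccdc33 amounted to 0.406% to 0.501% of Cyp11a1 counts in the libraries labelled tamoxifen and 0.514% to 1.14% in oil. With each library left out in turn the Ccdc33 call was kept only without tamoxifen 4, and the adjusted p ranged from 9.22e-05 to 0.1596.

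**Figure D3:**
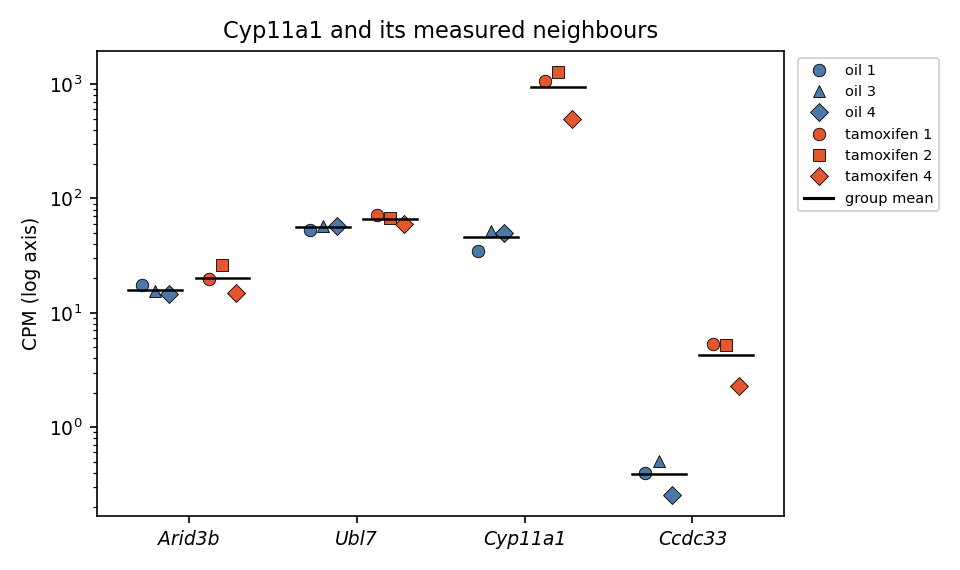
CPM (log axis) of Cyp11a1 and the neighbouring genes that reached the test, in chromosome order, for each library, with group means as black lines. The groups lie far apart for Cyp11a1 and Ccdc33. For Ubl7 they do not overlap but come close (57.9 CPM in oil 4, 59.6 CPM in tamoxifen 4), and for Arid3b they overlap.

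The wider pathway was then followed in 6 lists holding 117 further genes, of which 76 were tested. Of these 76, 4 were called higher (14 at an unadjusted p under 0.05) and 0 lower by edgeR (3 unadjusted), and DESeq2 called 7 higher and 0 lower. The median log2 fold change over the 76 was 0.03, beside 0.00 over all genes tested.

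Other enzymes that convert steroids were divided between absent and well expressed genes. Of 28 in the table, 12 had 0 counts in all libraries, among them Hsd3b2, Cyp21a1 and Cyp19a1. Another 12 were tested, with 0 called by edgeR (1 at an unadjusted p under 0.05) and a median of 0.04. That 1 gene was Por, the reductase that supplies electrons to the microsomal P450 enzymes, at 95.7 ± 4.07 CPM in oil and 150.4 ± 36.4 in tamoxifen (log2 fold change 0.65, SE 0.16, edgeR adjusted p = 0.0867), which DESeq2 called at an adjusted p of 0.00686 and edgeR called without tamoxifen 4 (0.81, adjusted p = 0.000392). Cyb5a, the cytochrome that assists CYP17A1, and Hsd17b11 followed at 0.25 and 0.24, not called with all 6 libraries. Without tamoxifen 4 edgeR called both, at 0.39 (adjusted p = 0.00664) and 0.41 (adjusted p = 0.00426). Hsd3b7, a 3beta-hydroxysteroid dehydrogenase of bile acid synthesis named here after its values were seen, was at 102 CPM in oil and 100.1 CPM in tamoxifen.

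Of 21 genes of cholesterol uptake and delivery, all were tested, 2 were called higher and 0 lower by edgeR (4 and 2 unadjusted), and the median was 0.00. Abca1, which exports cholesterol from the cell and is induced by liver X receptors, was 44.5, 41.0 and 47.6 CPM in oil and 129.7, 161 and 80.5 CPM in tamoxifen 1, 2 and 4 (log2 fold change 1.48, SE 0.23, edgeR adjusted p = 0.0325). Stard5, a cytosolic sterol-binding relative of Star, was 2.98, 3.10 and 3.22 CPM in oil and 8.12, 10.1 and 5.94 CPM in tamoxifen (log2 fold change 1.38, SE 0.24, edgeR adjusted p = 0.0399). In both, tamoxifen 4 was the lowest of its group and still above all oil libraries.

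The list of other mitochondrial P450 enzymes and ferredoxin users gave 10 tested genes. None of them was a P450, as Cyp27a1 was at 0 and Cyp27b1 and Cyp24a1 had too few counts to be tested. Cyp11b1, a mitochondrial P450 listed with the converting enzymes and named after its values were seen, was tested and not called. It was 4.45, 4.24 and 3.58 CPM in oil and 5.95, 4.28 and 1.66 CPM in tamoxifen 1, 2 and 4 (log2 fold change -0.06, SE 0.41). The 10 genes of the ferredoxin list covered lipoate synthesis, lipoate-bearing enzymes and heme A synthesis beside Fdx1l. Of them 0 were called by edgeR, 0 had an unadjusted p under 0.05, 0 were called by DESeq2, and the median was -0.03. The largest differences were -0.49 for Lipt2, a lipoyl transferase, -0.20 for Dlat, a pyruvate dehydrogenase subunit, and -0.08 for Fdx1l, the second mitochondrial ferredoxin, which turned to 0.04 without oil 4. Lipt2 and Dlat were called lower without tamoxifen 4, at -1.26 (edgeR adjusted p = 0.0367) and -0.31 (edgeR adjusted p = 0.0162).

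Among 27 regulators of steroidogenic genes, 8 had 0 counts throughout, including Nr5a1 (the nuclear receptor that governs steroidogenic genes in adrenal and gonad), Nr5a2, Gata4 and Gata6, and the gonadotropin receptors Lhcgr and Fshr. Of the 16 tested, 1 was called higher and 0 lower by edgeR (3 and 1 unadjusted), with a median of -0.05. It was Cebpb, a basic leucine zipper factor of myeloid cells, steroidogenic cells and fat, at 9.43, 7.39 and 9.05 CPM in oil and 14.3, 14.3 and 15.9 CPM in tamoxifen (log2 fold change 0.78, SE 0.16, edgeR adjusted p = 0.0493). Named after their values were seen, the blood GATA factors Gata2 and Gata1 were abundant, with means of 500.3 and 362 CPM in oil and 588 and 323 CPM in tamoxifen. Neither was called with all 6 libraries, and without tamoxifen 4 edgeR called Gata2 higher (0.29, adjusted p = 0.0242) and Gata1 lower (-0.22, adjusted p = 0.0334).

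The progesterone receptor Pgr and the oestrogen receptors Esr1 and Esr2 had no more than 5 counts in any library and were not tested. Of 11 steroid receptors and chaperones 8 were tested, with 0 called by edgeR (1 at an unadjusted p under 0.05) or DESeq2, and a median of 0.05. The chaperone genes Ptges3 and Fkbp4 had log2 fold changes of -0.43 and -0.42 (edgeR adjusted p = 0.337 and 0.303), and without tamoxifen 4 both were called lower, at -0.81 and -0.68 (edgeR adjusted p = 0.000379 and 0.00384).

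Of 13 glucocorticoid-responsive genes 9 were tested, all with a positive difference where 5809 of 11614 genes were positive, and the median was 0.59. By edgeR 1 was called higher and 0 lower (5 and 0 unadjusted). It was Fkbp5, an immunophilin induced by glucocorticoid receptor, at 0.113, 0.412 and 0.617 CPM in oil and 3.13, 3.99 and 2.15 CPM in tamoxifen (log2 fold change 3.01, SE 0.51, edgeR adjusted p = 0.0398). Its oil level rested on 2, 8.5 and 12 counts, with oil 1 under the floor of 0.169 CPM for that library, so the size of its fold is uncertain. Abca1, Stard5, Cebpb and Fkbp5 were each called in 1 of 6 fits with a library left out, the fit without tamoxifen 4. In the others their adjusted p reached 0.187, 0.204, 0.204 and 0.181. Without tamoxifen 4, 25 of 79 pathway genes were called higher and 11 lower, in the fit that called 19.2% of all genes higher and 17.1% lower. By list, the higher and lower calls were 8 and 0 of 10 glucocorticoid-responsive genes and 4 and 0 of 12 converting enzymes. They were 6 and 3 of 21 for cholesterol uptake and delivery, and 4 and 3 of 17 regulators. Receptors and chaperones had 3 and 3 of 8, and ferredoxin users 0 and 2 of 11.

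**Figure D4:**
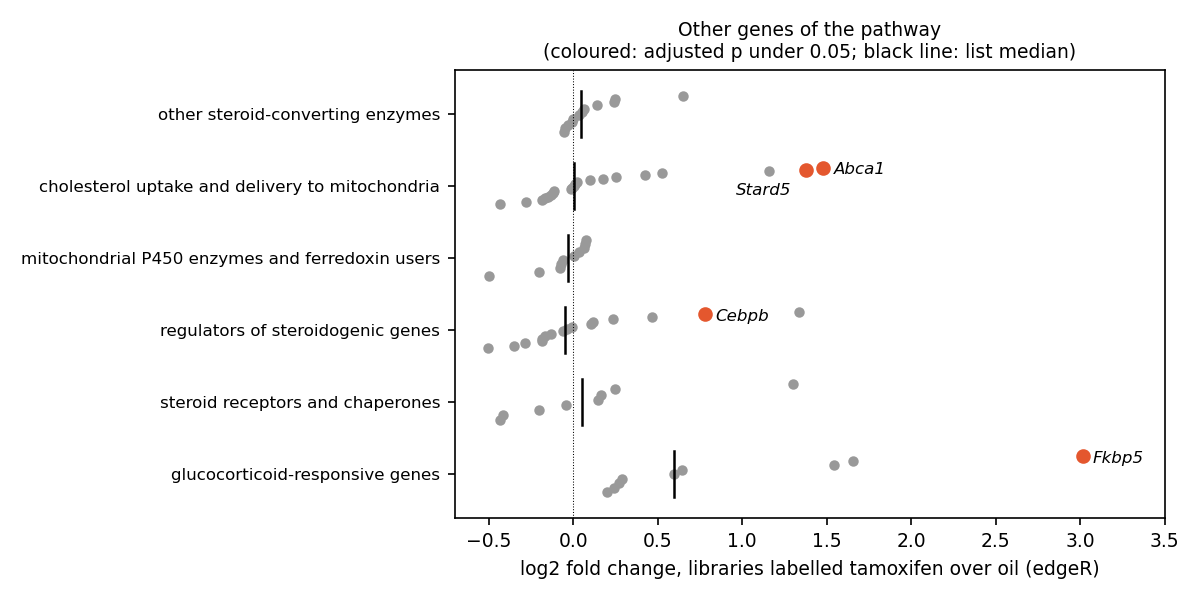
Log2 fold changes (libraries labelled tamoxifen over oil, edgeR) of the 76 tested genes in 6 pathway lists, one point per gene, coloured where the adjusted p was under 0.05, with the list median as a black line. Medians lie between -0.05 and 0.05 except for the glucocorticoid-responsive genes at 0.59, and 4 genes are coloured.

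Markers of other cell types were read in the same libraries. Summed mast cell and basophil markers (15 in the table, none at 0) came to between 3293 and 3453 CPM in oil. In tamoxifen 1, 2 and 4 they came to 5303, 8221 and 4007 CPM, the same order as Cyp11a1. That order was not particular to them. Sums of erythroid, macrophage and progenitor markers had it too, while those of T and NK cell markers and of B cell markers did not. Of the 15, all tested, 3 were called higher (Tpsb2, Fcer1a and Mitf), where 1.75% of all tested genes were. Of them 14 were positive, and 12 were called higher without tamoxifen 4, in the fit that called 19.2% of all genes higher. The IgE receptor chain Fcer1a went from 84.0 to 365 CPM. Others were flat: Ms4a2, another chain of that receptor and the 1 negative marker, was at 896 and 872 CPM, and Mcpt1 at 174 and 183 CPM. Cyp11a1 itself was 23.3-fold, 28.1-fold and 10.8-fold over its oil mean in tamoxifen 1, 2 and 4. The part of mast cells and basophils in the Cyp11a1 difference was not tested.

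T and NK cell markers, whose cells the Lin- gate is meant to remove, summed to between 1.24 and 3.30 CPM in any library, and 8 of the 11 in the table, Cd3e included, had 0 counts throughout. Their part in the Cyp11a1 level was not tested either. Macrophage markers summed to at most 13.4 CPM (0 of 6 tested called by edgeR, 1 unadjusted), B cell markers to 0.933, neutrophil markers to 0.590 and stromal and endothelial markers to 0.675 CPM. Erythroid markers summed to between 2825 and 7205 CPM over the 6 libraries. Kit, by which the cells were sorted, was at 439 to 451 CPM in oil and 447 to 782 CPM in tamoxifen (called higher without tamoxifen 4, edgeR adjusted p = 0.000289), the progenitor marker Cd34 was called higher (9.94 ± 1.68 to 96.3 ± 48.3 CPM, edgeR adjusted p = 0.0232), and Hoxa9 and Flt3 were at 0. Each marker call named from the 6 libraries was also kept only without tamoxifen 4 when single libraries were left out.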

How the data were processed

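The deposited values were estimated counts for each symbol, in multiples of 0.5, made per the labels with STAR on mm10 and DESeq2. The counter, strand setting and annotation are not given in the sources used here. Per the labels RNA was extracted with Trizol and libraries made with a Nextera DNA Flex kit, and the study names paired-end sequencing on a NovaSeq. Titles and table columns number libraries differently, so the numbers of the table are used, and oil 3 and tamoxifen 2 were assigned by group only. The labels call the 3 samples per group biological replicates. The labels mark these libraries as batch 2; the other batch and ATAC-seq were not analysed here. A spreadsheet had turned 26 symbols into dates.

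Counts were rounded and tested in R 4.3.3 with edgeR 4.0.16 (filterByExpr, TMM, quasi-likelihood F test, Benjamini-Hochberg over 11614 genes, threshold 0.05). CPM come from unrounded counts, and the prior count for log2 CPM was 2. Alternatives used DESeq2 1.42.0, limma 3.58.1 (voom), other scalings and filters, a block, and each library left out. The genes and lists were chosen with earlier results of these data known. Named are the 9 genes, Usp18, called list genes (otherwise at most 3 with the largest fold), the 5 most and 3 least alike genes, and 3 neighbours per side. Scripts were tested on simulated data. Some genes of the lists are not reported here by name.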

Additional observations from a re-analysis of the deposited data

How the results depend on the processing

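Cyp11a1 was higher in libraries labelled tamoxifen under every alternative run, with a log2 fold change between 4.09 (without tamoxifen 2) and 4.68 (without tamoxifen 4). Star ranged from 0.01 to 0.36, Tspo from 0.02 to 0.39 and Fdxr from -0.38 to -0.22. The counts over all genes were less stable than these differences. Against 203 genes higher and 31 lower, DESeq2 called 713 and 231, limma-voom 48 and 6, edgeR without a low-count filter 372 and 61, and a filter at a mean of 50 counts 120 and 17. Leaving out 1 library gave 8 to 2278 higher and 0 to 2024 lower, with between 1373 and 5501 genes at an unadjusted p under 0.05, and the highest counts came without tamoxifen 4. Of the pathway lists, 4 genes were called higher, against 7 by DESeq2, 0 by limma-voom (13 unadjusted), 2 with the filter at 50 counts and 0 to 25 with 1 library left out (9 to 28 unadjusted). Lower calls in the lists were 0 to 11 with 1 library left out (0 to 12 unadjusted). Usp18, with a log2 fold change of 0.998, passed the threshold by DESeq2 at 0.9997, without a filter at 0.99 and without tamoxifen 4, and ranged from 0.73 to 1.18 with 1 library left out. Fdx1l, not called in any fit, changed sign between -0.16 without oil 1 and 0.037 without oil 4. Of the 5 genes most alike to Cyp11a1, 0 to 3 were again among the top 5 with 1 library left out. The cause of these differences was not tested beyond the number of genes and libraries that each alternative used.

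Libraries 1 and 4 of each group share a number, and their deviations from the group means correlated at -0.13 and 0.06. The means are of 3 libraries each, with tamoxifen 4 standing apart, so these values cannot show whether same-numbered libraries were paired. The main fit used no pairing. A fit of these 4 libraries with a replicate block called 174 genes higher and 18 lower, and 1 gene of the pathway lists higher.

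With 3 libraries per group, 1 of which stands nearer to the other group, genes below the counting floor and differences smaller than the spread of the tamoxifen group could not be resolved.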
